A study of Mus musculus with 6 samples.

Results

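The 10 immediate early genes Fos, Fosb, Jun, Junb, Jund, Egr1, Atf3, Ier2, Dusp1 and Nr4a1 were followed by symbol in RNA-sequencing data of sorted tumor endothelial cells (ECs). They are 10 of the 24346 gene symbols listed, were chosen by name as genes known to respond to cell isolation, and all 10 passed the filter for testing. Tumors came from 3 wild-type (WT) C57BL/6 mice and 3 Apelin-knockout (Apelin-KO) mice of the same strain background, 8 to 10 weeks of age, and were taken at day 19 after subcutaneous inoculation of MC38, a mouse colon carcinoma cell line. All tumors were digested with enzyme, dead cells were excluded, and CD31+CD45- cells were sorted. The sample titles of both groups name saline, whereas the knockout is the only stated difference between the groups. WT mice were purchased and are not said to be littermates of the Apelin-KO mice. The knockout is not described as cell-specific, so the tumor cells, which carry no stated deletion, grew in a host lacking Apelin. The time from dissection to lysis and the order of sorting are not given in the sources used here. Nothing says that samples of the 2 groups were paired, and p-values measure the spread between the samples of a group.

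Immediate early genes are transcribed within minutes of a stimulus without new protein synthesis, by factors such as SRF, the ternary complex factors and CREB that MAP kinases and their downstream kinases activate. Their mRNAs are short-lived, so they mark recent signalling. FOS and JUN proteins pair as the transcription factor AP-1, and MAP kinase phosphatases such as DUSP1 shut the signal off. In ECs these genes answer to growth factors, cytokines and flow, and warm enzymatic digestion of tissue is a known trigger in many cell types. No sample taken without digestion was analysed here, so the level before isolation is not known from these data. Since each sample is a bulk population, fewer cells of a type and less RNA per cell cannot be told apart.

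The data held FPKM (reads scaled to transcript length and to the total mapped), a level corrected for gene length. FPKM summed to between 489396 and 529018 per sample. From the spacing of low values, which single reads set, the depth was estimated at 9060000 to 10240000 reads. Pecam1, which encodes the CD31 used for sorting, was at 553 to 671 FPKM in WT and 689 to 846 FPKM in Apelin-KO samples. Ptprc, which encodes CD45, was at 1.3 to 4.8 FPKM in WT and 0.043 to 1.7 FPKM in Apelin-KO samples. Sums of further hematopoietic markers are given below. Apln, the deleted gene, was at 432 to 504 FPKM in WT and at 9.96 to 24.3 FPKM in Apelin-KO samples. It was the only gene of 10964 tested with an adjusted p-value under 0.05 (adjusted p = 0.00747, limma).

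Of the 10 members, 8 had a RefSeq promoter entry. For Jund the RefSeq start lay 1210 bases upstream of the GENCODE start, and its window was not used. The remaining 7 windows of 250 bases before the start were searched on both strands for 6 motifs. The half-site of the cyclic AMP response element bound by CREB and ATF proteins, TGACG, lay in the windows of Fos, Fosb, Junb, Atf3, Dusp1 and Nr4a1, 6 of 7, whereas 17.8% of 32851 windows of the same length over all RefSeq genes held it. The single match of Atf3 lay within the transcript by the GENCODE start, so 5 of 7 windows held a match upstream of both starts. The stretches around 1 such half-site in 5 of these genes are given because they show the letters these members share. Capitals mark TGACG, or CGTCA where the half-site is on the other strand (RefSeq, GRCm38.p6, written on the strand of the gene, 5′ to 3′).
Fos, chr12:85473806-85473846, plus strand: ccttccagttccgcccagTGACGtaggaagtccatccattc
Fosb, chr7:19310083-19310123, minus strand: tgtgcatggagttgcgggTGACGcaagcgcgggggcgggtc
Junb, chr8:84978832-84978872, minus strand: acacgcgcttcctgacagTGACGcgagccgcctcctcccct
Dusp1, chr17:26508590-26508630, minus strand: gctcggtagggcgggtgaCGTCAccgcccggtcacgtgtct
Nr4a1, chr15:101266788-101266828, plus strand: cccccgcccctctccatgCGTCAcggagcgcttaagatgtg

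The capitals begin 66 bases before the RefSeq start in Fos, 60 in Fosb, 106 in Junb, 140 in Dusp1 and 40 in Nr4a1. In Dusp1 the 3 bases before the capitals complete the palindrome TGACGTCA, which 1.55% of all windows held and no other member window did. The Fos window held 2 half-sites, that of Dusp1 3 and that of Nr4a1 4, those of the palindrome included. The EGR motif GCGNGGGCG was found in Fosb and Nr4a1 (4.70% of all windows) and TATAAA in Fos (12.4% of all windows). The AP-1 motif TGANTCA (6.75%) and the CArG box of SRF (1.47%) were found in none of the 7 windows. A match is a run of letters, not a shown binding site, and windows this short miss sites farther upstream.

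**Figure D1:**
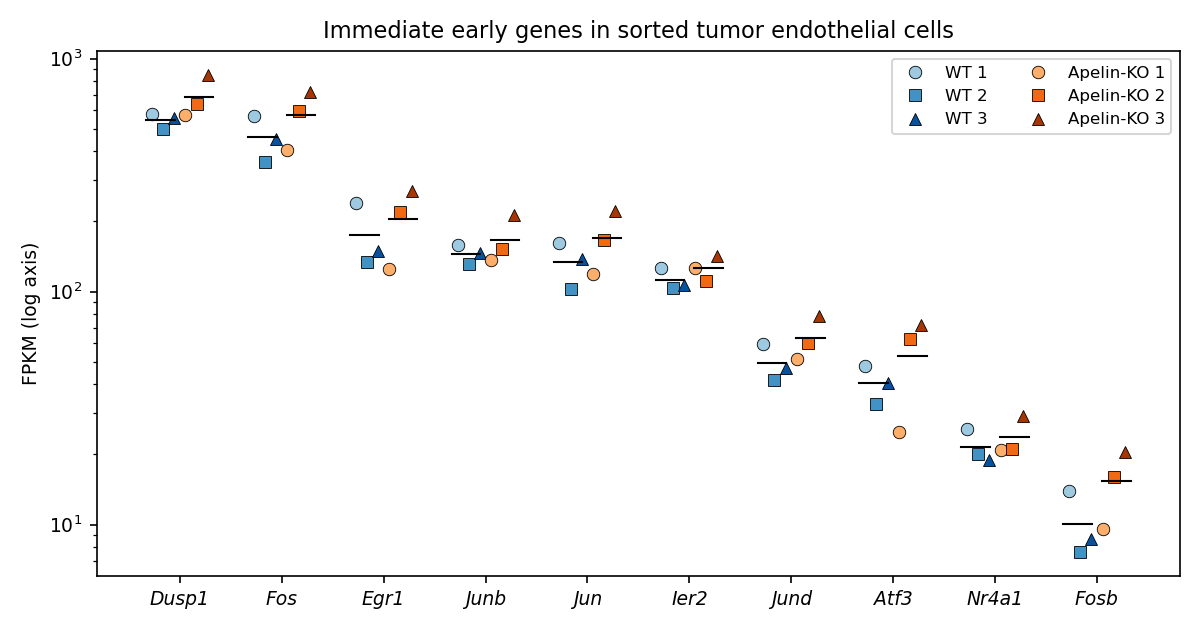
Level of each immediate early gene in every sample, in FPKM on a log axis, with genes in the order of their mean over 6 samples. Blue symbols are WT 1, 2 and 3, orange symbols are Apelin-KO 1, 2 and 3, and bars are the mean of each group. For all 10 genes the highest value is Apelin-KO 3, and the 2 groups overlap.

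Fos, the inducible partner of JUN in AP-1 (4 exons, chr12:85473890-85477273), was at 565, 359 and 452 FPKM in WT samples 1 to 3, respectively, and at 404, 598 and 716 FPKM in Apelin-KO samples 1 to 3, an order kept for all genes that follow. The highest value was thus in Apelin-KO 3 and the lowest in WT 2, and the groups overlapped. Group means were 459 ± 103 FPKM in WT and 573 ± 157 FPKM in Apelin-KO ECs (SD, n = 3 each). On the log2(FPKM + 1) scale Apelin-KO exceeded WT by 0.30 with a standard error of 0.25 (adjusted p = 0.721).

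Fosb, its close relative (chr7:19302701-19310046), had the lowest level of the 10 genes. It was at 13.9, 7.64 and 8.63 FPKM in WT and at 9.60, 16.0 and 20.4 FPKM in Apelin-KO samples. The order of samples was that of Fos except that Apelin-KO 1 stood above WT 3. The log2 fold change of 0.54 ± 0.30 (SE) was the largest among the members and did not pass the test (adjusted p = 0.609).

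Jun, the partner that FOS proteins need to bind DNA (1 exon, chr4:95049034-95052222), was at 161, 102 and 137 FPKM in WT and at 119, 167 and 223 FPKM in Apelin-KO samples. Its samples stood in the same order as those of Fos, with WT 2 lowest and Apelin-KO 3 highest. Between genotypes its log2 fold change was 0.32 ± 0.26 (SE, adjusted p = 0.721).

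Junb, a JUN family member that can limit JUN activity (chr8:84976910-84978718), was at 159, 131 and 146 FPKM in WT and at 137, 152 and 212 FPKM in Apelin-KO samples. Apart from Apelin-KO 3, its values lay within a narrow band in which the groups were mixed. In Apelin-KO ECs its mean was higher by 0.18 ± 0.18 on the log2 scale (SE, adjusted p = 0.773). Jund, the JUN gene with the least dependence on stimuli (chr8:70698949-70700616), was at 59.5, 41.7 and 47.1 FPKM in WT and at 51.5, 60.0 and 78.8 FPKM in Apelin-KO samples. Here Apelin-KO 2 stood just above WT 1, and WT 2 was lowest. The log2 fold change was 0.35 ± 0.19 (SE, adjusted p = 0.610). Genes annotated on the opposite strand, Junos and Gm11175, overlap Jun and Jund, and the libraries were stranded but the strand setting used for FPKM is not given in the sources used here, so both levels are uncertain to that extent.

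Egr1, a zinc-finger transcription factor induced by growth factors and shear stress, was at 240, 135 and 149 FPKM in WT and at 125, 219 and 269 FPKM in Apelin-KO samples. Apelin-KO 1 was its lowest sample and Apelin-KO 3 its highest, so that the Apelin-KO group spanned the whole WT range. With that spread its log2 fold change was 0.20 ± 0.33 (SE, adjusted p = 0.870).

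Atf3, a stress-induced factor of the ATF family (4 exons, chr1:191170296-191183340), was at 47.9, 32.8 and 40.5 FPKM in WT and at 25.0, 62.7 and 71.7 FPKM in Apelin-KO samples. The 2 highest samples and the lowest were all Apelin-KO. Its log2 fold change was 0.27 ± 0.38 (SE, adjusted p = 0.849), the widest error among the members.

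Nr4a1, an orphan nuclear receptor (7 exons, chr15:101266846-101274795), was at 25.6, 20.1 and 18.9 FPKM in WT and at 20.8, 21.0 and 29.2 FPKM in Apelin-KO samples. WT 3 was lowest, and Apelin-KO 1 and 2 lay within the WT range. The log2 fold change was 0.12 ± 0.17 (SE, adjusted p = 0.849), the smallest of the 10.

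Ier2, which encodes a nuclear protein of the early response (1 exon, chr8:84661331-84662852), was at 126, 104 and 107 FPKM in WT and at 126, 111 and 142 FPKM in Apelin-KO samples. It was the steadiest member, since WT 1 and Apelin-KO 1 were level and only 1.37-fold parted the lowest and the highest sample. Its log2 fold change was 0.17 ± 0.13 (SE, adjusted p = 0.710).

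Dusp1, which encodes the phosphatase that inactivates p38, JNK and ERK (4 exons, chr17:26505591-26508472), was the member with the highest level. It was at 578, 500 and 557 FPKM in WT and at 570, 637 and 854 FPKM in Apelin-KO samples. The 3 WT values lay close together, Apelin-KO 1 fell among them, and Apelin-KO 2 and 3 lay above. Its log2 fold change of 0.31 ± 0.16 (SE) had the lowest adjusted p of the members (adjusted p = 0.590, unadjusted p = 0.0964, limma).

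Apelin-KO 3 had the highest value of all 6 samples for 10 of 10 members, where 24.9% of the 10964 genes tested were highest in that sample. The lowest sample was WT 2 for 7 members, Apelin-KO 1 for Egr1 and Atf3, and WT 3 for Nr4a1. WT 1, Apelin-KO 2 and Apelin-KO 3 were the 3 highest samples for 9 of 10 members, all but Ier2, where 7.31% of all genes tested had those samples on top. This set of 3 samples was noticed after the values were seen. It holds 1 WT and 2 Apelin-KO samples. The 10 members are induced by shared signals and are not independent of each other, so these counts describe 6 samples and carry no test.

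**Figure D2:**
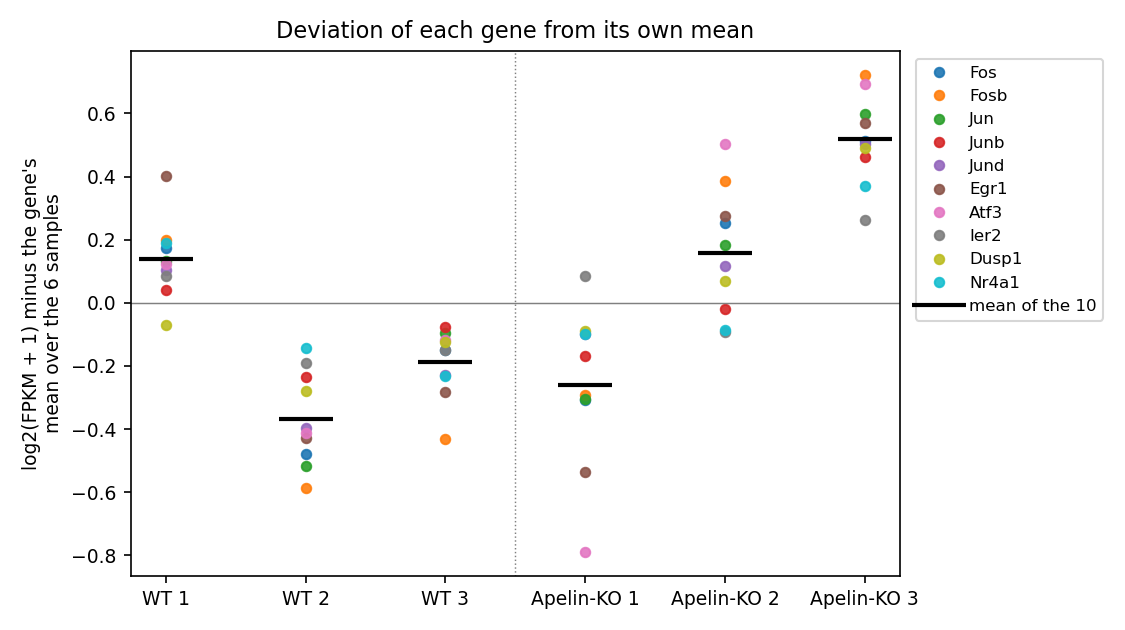
Deviation of each immediate early gene from its own mean over the 6 samples, on the log2(FPKM + 1) scale. Points are the 10 genes and black bars their mean, which is below 0 in WT 2, WT 3 and Apelin-KO 1 and above 0 in WT 1, Apelin-KO 2 and Apelin-KO 3.

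Averaged over the 10 genes, the deviation from each gene's mean was 0.14, -0.37 and -0.19 for the WT samples and -0.26, 0.16 and 0.52 for the Apelin-KO samples on the log2 scale. Apelin-KO 3 thus stood at 1.43 times the usual level of these genes and WT 2 at 0.776 times. The FPKM of the 10 genes summed to 1976, 1433 and 1663 in WT and to 1588, 2044 and 2616 in Apelin-KO samples. The 2 lowest sums came from different genotypes, WT 2 and Apelin-KO 1. When the samples were rescaled by median ratios, to a common total or by quantiles, the average deviation of Apelin-KO 3 lay between 0.47 and 0.51 and the sign in each sample was unchanged.

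Every member had a higher mean log2 level in Apelin-KO than in WT ECs, where 52.5% of all genes tested did. Their log2 fold changes ranged from 0.12 to 0.54 with a median of 0.29, beside a median of 0.01 over all genes tested. The 15 endothelial markers described below also all had a higher mean in Apelin-KO, with a median log2 fold change of 0.22. None of the 10 had an adjusted p-value under 0.05 (0.00912% of all genes tested). None had an unadjusted p-value under 0.05 either, where 9.42% of all genes tested did and 4.25% did with the higher level in Apelin-KO. In none did all Apelin-KO values exceed all WT values, as they did in 7.77% of all genes tested. With 3 against 3 samples an exact permutation test of a single gene cannot go below p = 0.1, so limma was used across all genes.

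**Figure D3:**
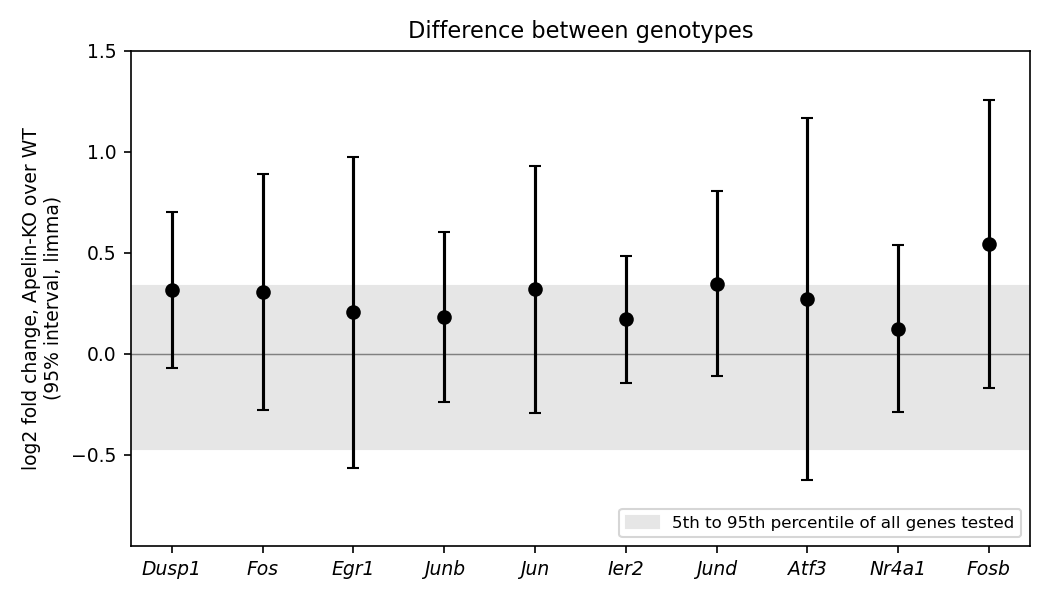
Log2 fold change of each immediate early gene, Apelin-KO over WT, with its 95% interval from limma. The grey band holds the 5th to 95th percentile of the fold changes of all genes tested, and every interval includes 0.

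The 95% intervals show which sizes the data leave possible. For Ier2 the Apelin-KO level lay between 0.906 and 1.40 times the WT level, and for Nr4a1 between 0.819 and 1.45 times. Junb was bounded by 0.848 and 1.52 times, and Dusp1 by 0.951 and 1.63 times. The bounds were 0.926 and 1.75 times for Jund, 0.824 and 1.85 times for Fos and 0.816 and 1.90 times for Jun. They were widest for Egr1 (0.675 to 1.97), Atf3 (0.648 to 2.25) and Fosb (0.890 to 2.39), for which a 2-fold difference was thus nearly or fully inside the interval.

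The direction rested in part on Apelin-KO 3. Without that sample the log2 fold changes of Junb (-0.0021), Egr1 (-0.029), Atf3 (-0.0074) and Nr4a1 (-0.030) turned to the other side of 0, and the median of the 10 was 0.09. The log2 fold changes of the other 6 kept their sign without it but were smaller, at 0.32 for Fosb, 0.18 for Jund, 0.15 for Dusp1, 0.12 for Fos, 0.10 for Jun and 0.08 for Ier2. Without WT 2 the median was 0.14. Without Apelin-KO 1 it was 0.50, and 5 members, Fos, Fosb, Jund, Atf3 and Dusp1, had an unadjusted p-value under 0.05, beside 4.43% of all genes tested without that sample and higher in Apelin-KO. Without WT 1 this held for Fosb and Jund, beside 2.88% of all genes. The adjusted p-value was under 0.05 for no member whichever sample was left out.

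The spread between samples of 1 genotype was wide for most of these genes. Its median over the 10 was an SD of 0.33 on the log2 scale, beside 0.16 over all genes tested. Atf3 had an SD of 0.60, which only 2.55% of all genes tested exceeded. Egr1 followed with 0.51 (4.02% of genes larger), Fosb with 0.47 (5.18%), Jun with 0.40 (7.62%) and Fos with 0.38 (8.65%). Jund (0.28), Junb (0.25), Nr4a1 (0.25) and Dusp1 (0.23) were exceeded by 17.7% to 29.0% of genes. Ier2, at 0.16, was near the middle, with 51.1% of genes more variable.

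**Figure D4:**
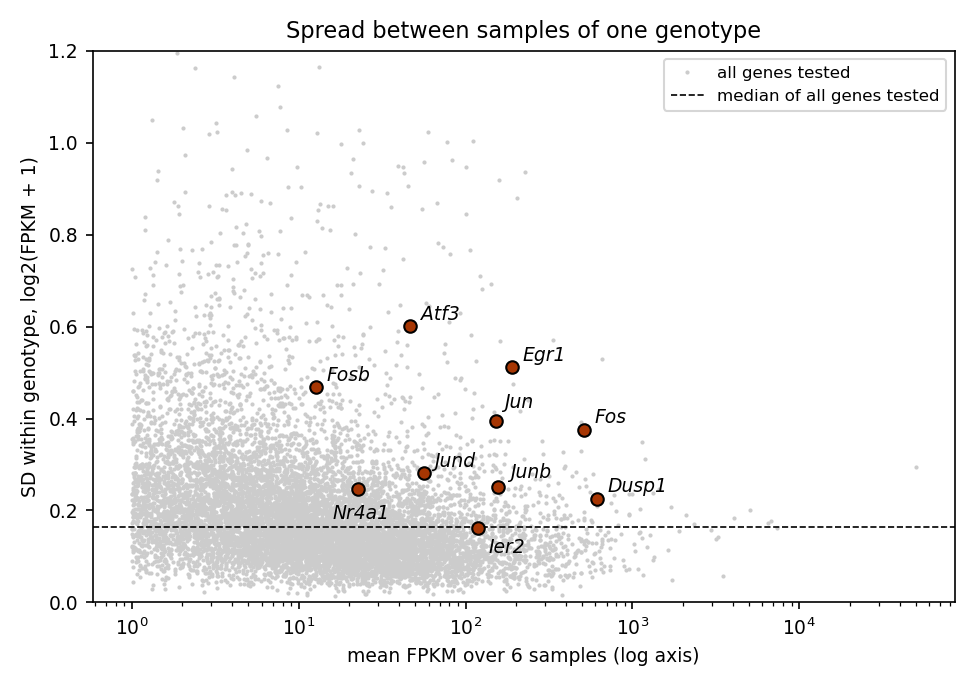
SD within genotype on the log2(FPKM + 1) scale against the mean FPKM over 6 samples on a log axis, for all genes tested (grey) and the 10 immediate early genes (red). The dashed line is the median of all genes tested, 73 genes lie above the axis, and 9 of the 10 members lie above the line.

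The share of the variance over 6 samples that lay between genotypes was 5.65% for Egr1, 7.11% for Atf3 and 8.74% for Nr4a1. It was between 16.4% and 19.7% for Junb, Jun and Fos, and it was 29.2% for Ier2, 33.6% for Fosb, 36.3% for Jund and 42.1% for Dusp1. The median over the members was 19.6%, beside 18.0% over all genes tested. The reads behind a value were estimated from FPKM, depth and transcript length, and ran from about 240 for Fosb in WT 2 to 12924 for Fos in Apelin-KO 3, and counting alone would give at most 6.46% error, for Fosb in WT 2.

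Per transcript length, Dusp1 (616 ± 124 FPKM, mean ± SD over 6 samples) and Fos (516 ± 134) led the 10 genes. Their ranges overlapped, yet Dusp1 exceeded Fos in 6 of 6 samples. Egr1 (189 ± 61.1), Junb (156 ± 29.3), Jun (152 ± 42.7) and Ier2 (119 ± 14.7) formed a middle group, separated from Fos above and from Jund below without overlap. Within this group the neighbours overlapped, and Junb exceeded Jun in only 3 of 6 samples. Jund (56.4 ± 13.0), Atf3 (46.8 ± 17.8), Nr4a1 (22.6 ± 3.96) and Fosb (12.7 ± 4.97) followed, each overlapping the next, although Atf3 exceeded Nr4a1 and Nr4a1 exceeded Fosb in all 6 samples.

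Ratios of FPKM between pairs of members within a sample showed which genes kept step. Of 45 pairs, that of Fos to Jun was the tightest, at 3.51, 3.51 and 3.29 in WT and 3.41, 3.58 and 3.21 in Apelin-KO samples. Its lowest and highest values were 1.12-fold apart, while Fos itself ranged 1.99-fold and Jun 2.18-fold. Junb and Dusp1 (1.15-fold) and Jund and Dusp1 (1.23-fold) came next, and the median over all pairs was 1.49-fold. The ratio of Atf3 to Ier2 varied most, at 0.382, 0.316 and 0.379 in WT and 0.199, 0.564 and 0.504 in Apelin-KO samples, a 2.83-fold range. Atf3 and Egr1, both lowest in Apelin-KO 1, kept their ratio within 1.43-fold. The pairs share members and samples and were not tested.

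Genes with a similar course over the 6 samples were ranked by the root mean square difference between their centred log2 profile and the average of the 10 members, among 5885 other genes whose mean reached 10 FPKM. Nearest was Pvrl2, which encodes the adhesion molecule nectin-2, with a difference of 0.058. It was at 106, 73.2 and 85.1 FPKM in WT and at 87.9, 116 and 139 FPKM in Apelin-KO samples. Pgm2 (0.067), Ccng2 (0.068), Sema4c (0.069) and Fosl2 (0.072) followed. Fosl2, a FOS family gene, was at 12.1, 8.27 and 8.84 FPKM in WT and 8.12, 12.1 and 13.9 FPKM in Apelin-KO samples. Among the members, which make up the average, Fos (0.067), Jund (0.072) and Jun (0.082) were nearest and Ier2 (0.22) and Atf3 (0.27) farthest.

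Other genes of the same response were compared by list, and in none of the 6 lists did a gene have an adjusted p-value under 0.05. Of 39 other early response genes, 37 were tested, 29 had a higher and 8 a lower mean in Apelin-KO, and 25 were highest in Apelin-KO 3. Their median log2 fold change was 0.17. In this list 2 of 37 genes had an unadjusted p-value under 0.05, both higher in Apelin-KO, near the 4.25% of all genes tested. Ctgf, which encodes a matricellular protein, was at 322, 252 and 316 FPKM in WT and 349, 530 and 553 FPKM in Apelin-KO samples (log2 fold change 0.66 ± 0.20 SE, adjusted p = 0.501). Cyr61, a related matricellular gene named here after its values were seen, was at 223, 258 and 247 FPKM in WT and 295, 309 and 329 FPKM in Apelin-KO samples (adjusted p = 0.501). Neither gene overlapped between the groups, and neither did Klf2 and Mcl1, also named after their values were seen, so that 4 of 37 genes were higher without overlap beside 7.77% of all genes tested. The gene with the most negative log2 fold change was Gadd45b, of the growth arrest and DNA damage family (-0.25 ± 0.23 SE, adjusted p = 0.755).

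**Figure D5:**
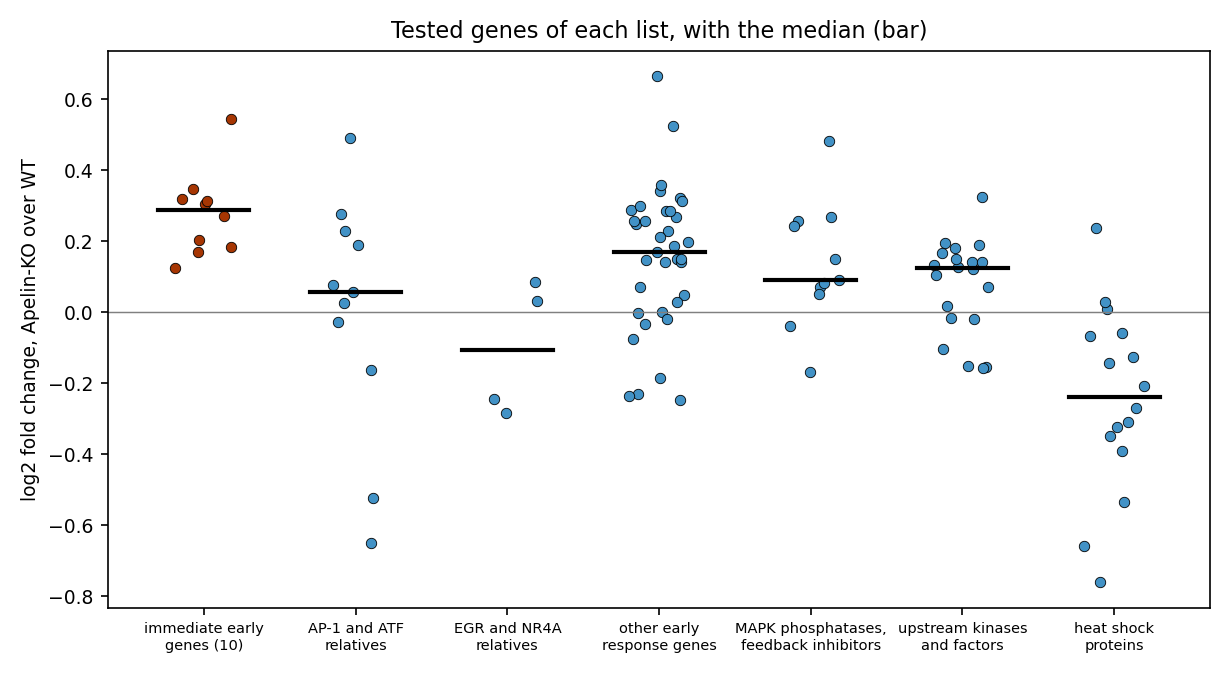
Log2 fold change, Apelin-KO over WT, of each tested gene in the immediate early genes (red) and 6 related lists (blue), with the median of each list as a bar. The horizontal spread of points within a list carries no meaning. Medians range from -0.24 for heat shock proteins to 0.29 for the immediate early genes.

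Among 11 tested AP-1 and ATF relatives, of 14 listed, 7 had a higher and 4 a lower mean in Apelin-KO, with a median log2 fold change of 0.06. Atf4, the stress factor with the highest level of the list, was at 58.3, 49.2 and 50.5 FPKM in WT and 41.9, 63.3 and 61.7 FPKM in Apelin-KO samples. Maff, a small MAF gene, was at 4.59, 4.70 and 4.40 FPKM in WT and 4.70, 6.21 and 10.6 FPKM in Apelin-KO samples, an excess owed mainly to Apelin-KO 3. Fosl1, which encodes FRA-1, had the opposite sign, with 2.87, 3.36 and 1.77 FPKM in WT and 0.81, 1.81 and 1.38 FPKM in Apelin-KO samples (log2 fold change -0.65, unadjusted p = 0.0218, adjusted p = 0.506). Fosl1 and Batf2 (adjusted p = 0.525), the latter named after its values were seen, were the 2 genes of this list with an unadjusted p-value under 0.05 and a lower level in Apelin-KO, where 5.17% of all genes tested met these terms. Of the EGR and NR4A relatives and EGR co-repressors, 4 of 7 were tested, with 2 higher and 2 lower. Nab1, an EGR co-repressor, was at 34.9 to 42.7 FPKM over all 6 samples. Nab2 had the most positive fold change (0.08 on the log2 scale) and Nr4a2 the most negative (-0.28, adjusted p = 0.792).

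Among MAP kinase phosphatases and feedback inhibitors, 11 of 13 were tested and 9 had a higher mean in Apelin-KO, with a median log2 fold change of 0.09. Dusp6, which encodes an ERK phosphatase, was at 127, 116 and 131 FPKM in WT and 150, 141 and 161 FPKM in Apelin-KO samples (log2 fold change 0.27, unadjusted p = 0.0362, adjusted p = 0.515). Spry1, an inhibitor of receptor tyrosine kinase signalling, was at 67.4, 59.1 and 85.3 FPKM in WT and 123, 89.2 and 85.4 FPKM in Apelin-KO samples (log2 fold change 0.48, adjusted p = 0.516). Both were thus without overlap, 2 of 11 genes beside 7.77% of all genes tested, and the same 2 had an unadjusted p-value under 0.05 with the higher level in Apelin-KO, beside 4.25%. Spry1 was highest in Apelin-KO 1, where Egr1 and Atf3 were lowest. Spred1, a further inhibitor of the pathway, had the most negative fold change (-0.17, adjusted p = 0.695). Of the upstream kinases and constitutive transcription factors, 20 of 22 were tested, 14 with a higher mean in Apelin-KO and a median of 0.12. Elk3, a ternary complex factor, was at 101 to 142 FPKM. Mkl2, a coactivator of SRF, had the most positive fold change (0.33, adjusted p = 0.525) and Mapk9, which encodes a JNK, the most negative (-0.16, adjusted p = 0.773).

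The list of heat shock proteins held chaperones, co-chaperones and the factor gene Hsf1, only some of which are induced when tissue is handled. Genes of this list mostly had the opposite sign to the immediate early genes. Of the 16 listed and tested, 13 had a lower mean in Apelin-KO, where 47.5% of all genes tested did, and 3 had a higher one. Their median log2 fold change was -0.24 and 3 were highest in Apelin-KO 3. An unadjusted p-value under 0.05 was reached by 3, Hspd1, Hspe1 and Hsp90aa1, all lower in Apelin-KO and named after their values were seen, beside 5.17% of all genes tested. In 4 genes all WT values exceeded all Apelin-KO values, as in 6.61% of all genes tested. Hspd1, a mitochondrial chaperone, was at 27.9, 30.7 and 27.7 FPKM in WT and 18.5, 22.7 and 17.7 FPKM in Apelin-KO samples (adjusted p = 0.501). Hsp90ab1, the chaperone with the highest level, was at 411 to 480 FPKM with no order between the groups (adjusted p = 0.889). Bag3, a co-chaperone, was highest in Apelin-KO 3 at 47.3 FPKM and had the most positive fold change (0.24). Hspa1b, the inducible HSP70, had the most negative (-0.76, adjusted p = 0.644), with 15.0, 8.78 and 16.5 FPKM in WT and 2.77, 10.8 and 11.7 FPKM in Apelin-KO samples. Its sequence is almost that of Hspa1a, so how reads were split between them is uncertain.

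Levels of cell type markers varied over the same samples. All 15 endothelial markers exceeded 1 FPKM and all had a higher mean in Apelin-KO, 5 of them with an unadjusted p-value under 0.05, beside 4.25% of all genes tested. Their median log2 fold change was 0.22. In 5 of the 15 all Apelin-KO values exceeded all WT values, as in 7.77% of all genes tested. Their sum was 4531 to 5426 FPKM in WT and 5610 to 5880 FPKM in Apelin-KO samples. It was lowest in WT 2 (4531) and highest in Apelin-KO 3 (5880), as were most immediate early genes, but the next lowest was WT 1 (4906) and the next highest Apelin-KO 1 (5812), in which the members stood the other way. Of 20 hematopoietic markers 17 were tested and 16 had a lower mean in Apelin-KO, 8 of them with an unadjusted p-value under 0.05, beside 5.17% of all genes tested. The median log2 fold change of these markers was -1.24. They summed to 723, 1237 and 353 FPKM in WT and to 160, 425 and 377 FPKM in Apelin-KO samples. WT 2, lowest for 7 members, was thus the highest here, but Apelin-KO 1, in which the members were also low, was the lowest. Of 9 fibroblast markers 7 were tested and all had a lower mean in Apelin-KO, 5 of them with an unadjusted p-value under 0.05 beside 5.17% of all genes tested, with sums of 199 to 345 FPKM in WT and 131 to 205 FPKM in Apelin-KO samples. Of 6 tested pericyte markers, 4 had a higher mean in Apelin-KO and none had an unadjusted p-value under 0.05. Mcam, which ECs also express, made up most of their sum. Kcnj8 was at 63.9 to 108 FPKM and Abcc9 at 51.6 to 78.6 FPKM. Lower were Pdgfrb at 4.46 to 8.01 FPKM, Acta2 at 4.76 to 10.4 FPKM and Cspg4 at 1.48 to 3.21 FPKM. These pericyte markers were named after their values were seen. None of 10 epithelial markers reached a mean of 1 FPKM over the samples. The part of these cells in the levels of the immediate early genes was not tested.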

How the data were processed

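RNA-sequencing was performed on sorted ECs from 3 WT and 3 Apelin-KO mice, grouped by the genotype in the labels. The authors prepared stranded mRNA libraries, sequenced single ends of 75 bases and mapped them to mm10, and the deposited values are FPKM from Cufflinks, 1 per symbol, with no read counts. The submitters' processing notes name TopHat2 2.1.1, Bowtie2 2.2.4, SAMtools 1.0, Cufflinks 2.2.1 and bcl2fastq 2.17.1.14. The paper's methods give other versions of TopHat, Bowtie2 and SAMtools and name Casava for base-calling, so the sources differ. The annotation is not given in the sources used here. FPKM cannot separate overlapping or near-identical genes with certainty, and a rise in 1 abundant gene lowers the rest. Mir682 alone held 7.78% to 12.1% of the sum.

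FPKM were analysed as log2(FPKM + 1), so fold changes of low genes are understated. Genes whose mean over the samples reached 1 FPKM, 10964 of 24346, were tested with limma 3.58.1 in R 4.3.3 (two-sided, moderated, no block) and adjusted by the Benjamini-Hochberg method over all of them. Tested on simulated data of 10964 genes with 200 changed, the fit recovered 74.2% of genes changed 2-fold and 95.7% of those changed 4-fold. Of the calls, 5.13% and 4.81%, respectively, were genes that had not been changed. The simulated noise was independent between genes, and in the real data only 1 gene was called. The median SD within genotype was 0.33 for the members, beside 0.16 over all genes tested. The shares recovered thus do not give the power of the test for the members.

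The members and lists were chosen with earlier results of these data known. Named genes were the 10 members, Apln, Pecam1 and Ptprc, the highest gene and the largest fold change each way in every list, any listed gene past the adjusted threshold of 0.05, and the 5 nearest patterns. Mir682 and the genes so marked in the text were named after their values were seen. Reads were estimated from 3742 genes with 1 transcript, assuming 200-base fragments. Low values came within 0.1 of a whole read in 67.3% to 70.9% of cases, against 20% by chance alone, and no count test was run. Intervals for reads cover counting error only. Gene positions are from GENCODE M21 (GRCm38) and promoters from RefSeq (GRCm38.p6). Alternatives changed the pseudocount, filter, scaling, variance, block and samples. Plots and annotation used Python 3.11.15 (numpy 2.4.6; pandas 2.3.3; matplotlib 3.10.9).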

Additional observations from a re-analysis of the deposited data

How the results depend on the processing

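No member had an adjusted p-value under 0.05 in any of 16 alternatives, and adjusted p-values of members ranged from 0.531 (Dusp1) to 0.997 (Junb). The median log2 fold change of the members, 0.29, lay between 0.25 and 0.29 under other pseudocounts, filters, scalings and variances, and between 0.09 (without Apelin-KO 3) and 0.50 (without Apelin-KO 1) when each sample was left out in turn. Without Apelin-KO 3 the fold changes of Junb (-0.0021), Egr1 (-0.029), Atf3 (-0.0074) and Nr4a1 (-0.030) reversed, and the highest values of these 4 genes with a sample left out were 0.31, 0.52, 0.73 and 0.25. The number of members with an unadjusted p-value under 0.05 ranged from 0 to 5 when samples were left out, with 5 without Apelin-KO 1 and 2 without WT 1, beside 4.43% and 2.88% of all genes tested with the higher level in Apelin-KO. Over all genes tested, the number with an adjusted p-value under 0.05 was 2 with a pseudocount of 5, without a filter, with a mean of at least 5 FPKM and with an intensity trend, 0 with each gene's own variance, and 0 to 3 when samples were left out, and the cause was not tested. Medians of the lists shifted when single samples were left out. The shift exceeded the SD of the list's mean level within genotype only in 2 cases. These were MAP kinase phosphatases and feedback inhibitors without Apelin-KO 1 and upstream kinases without Apelin-KO 3. The median of heat shock proteins, -0.24, stayed between -0.26 and -0.19 with a sample left out. That of other early response genes, 0.17, was 0.08 without Apelin-KO 3. That of MAP kinase phosphatases and feedback inhibitors, 0.09, ranged from -0.05 without Apelin-KO 3 to 0.27 without Apelin-KO 1, and that of upstream kinases, 0.12, was 0.03 without Apelin-KO 3. The AP-1 and ATF median, 0.06, ranged from 0.015 without Apelin-KO 2 to 0.16 without Apelin-KO 1, and was also 0.015 when scaled to a common total. The EGR and NR4A median, -0.11 over 4 genes, was 0.03 with a mean of at least 5 FPKM, which leaves fewer genes, and ranged from -0.26 without WT 3 to -0.00049 without WT 1. Deviations of same-numbered samples from their group means correlated at -0.14, 0.21 and -0.019 across genes. Those of differently numbered samples correlated at -0.20 to 0.21. Deviations within a group sum to 0, which ties these correlations together. They therefore cannot decide whether same-numbered samples were handled together. With the replicate number as a block, which cannot move the fold change of a balanced design, the adjusted p of Dusp1 was 0.665 and no member was called. The estimated depth would let counting error reach 6.46% for Fosb.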
